A study of Mus musculus with 4 samples.

Results

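The axonemal ruler and nexin link genes are 10 genes whose proteins build the nexin-dynein regulatory complex of motile cilia or set its spacing: Ccdc39, Ccdc40, Drc1, Ccdc65, Gas8, Drc3, Tcte1, Drc7, Iqcg and Iqcd. They were taken by name, from every array probe whose gene name, or current symbol through its accession, was one of the 10 or an older name of it. The arrays carried Drc1 as Gm1060, Drc3 as Lrrc48 and Drc7 as Gm770. All 10 had a probe, of 27595 genes with a probe, and all 10 were measured, of 18580 measured genes. They had 14 of the 41174 gene probes, and 11 of these 14 were measured, meaning well above background in the same genotype on both arrays for at least 1 genotype.

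RNA came from the distal, node-containing piece of mouse embryos at the early headfold stage (~E7.75). The homozygous embryos (Noto GFP/GFP) and the heterozygous embryos (Noto GFP/+) both carried a GFP allele of Noto, which encodes a homeobox factor made in the node and notochord, on a Sv129/CD-1 hybrid background; the heterozygote kept 1 allele without GFP, and no sample label names embryos without the GFP allele. The series' design text instead speaks of wildtype and mutant material, so whether the comparison group was heterozygous or wild type rests on the sample labels, which are followed here. Each genotype was 1 RNA pool of 120 to 150 pieces, whose size is given differently in different label fields, and a piece held the node together with the tissue around it. The pools were hybridised together on 2 Agilent arrays with the dyes exchanged, which gives 2 samples per genotype from 1 pool: the homozygote carried Cy5 on array 1 and Cy3 on array 2. The Noto transcript was not analysed here, and the genotype labels therefore stand without a check from it.

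A motile cilium beats because dynein arms slide its doublet microtubules against each other. Nexin links hold neighbouring doublets together, so that sliding becomes bending, and the regulatory complex in each link also controls the dyneins. The coiled-coil proteins CCDC39 and CCDC40 lie along each doublet as a molecular ruler that sets where the links, radial spokes and inner dynein arms attach. In the mouse node, pit cells carry motile cilia whose rotation drives the leftward flow that sets the left-right axis. The series as a whole looks for genes that act downstream of FOXJ1, the forkhead factor that switches on motile cilium genes. The comparison here asks how the ruler and link genes stand in node pieces of homozygous embryos relative to heterozygous ones.

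The sequences below are stretches of the promoters of 7 of the 10 genes, shown because RFX factors, which work with FOXJ1 on ciliary genes, bind the motif called the X-box. The windows searched run from 250 bases before to 50 bases after the RefSeq start site (build GRCm38.p6). The search covered both strands, and positions count from base 1 at the start site, with the base before it at -1. Capitals mark the X-box in Drc7, which reads as a match on either strand, and in the other genes the letters GTTGCC or GTTGCT or their reverse complement, the core of 1 arm of an X-box, which were chosen after the promoters had been read.
Ccdc39, chr3:33844281-33844313, minus strand: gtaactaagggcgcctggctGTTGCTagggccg
Drc1, chr5:30281362-30281422, plus strand: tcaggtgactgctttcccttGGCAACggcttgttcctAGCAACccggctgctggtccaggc
Ccdc65, chr15:98708161-98708206, plus strand: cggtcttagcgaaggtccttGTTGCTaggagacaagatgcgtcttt
Gas8, chr8:123518717-123518864, plus strand: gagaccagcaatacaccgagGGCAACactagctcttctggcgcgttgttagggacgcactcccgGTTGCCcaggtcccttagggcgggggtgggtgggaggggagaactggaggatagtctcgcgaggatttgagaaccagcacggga
Drc3, chr11:60353336-60353409, plus strand: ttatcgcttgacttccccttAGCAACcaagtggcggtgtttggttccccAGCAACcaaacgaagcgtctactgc
Drc7, chr8:95055083-95055132, plus strand: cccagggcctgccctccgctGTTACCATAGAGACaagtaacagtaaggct
Iqcg, chr16:33056180-33056325, minus strand: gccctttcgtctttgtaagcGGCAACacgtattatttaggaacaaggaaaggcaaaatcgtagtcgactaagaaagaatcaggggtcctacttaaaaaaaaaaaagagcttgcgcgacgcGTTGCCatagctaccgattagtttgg

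Of the 8 ruler and link genes with a promoter in the table, 1 held a full X-box, Drc7 at bases 1 to 14, against 1.86% of all 32851 promoters. The shorter core was in 6 of the 8 and in 25.1% of all promoters, but it was picked on these same promoters, so its count there is a description only. Of 11 promoters of other link subunits and neighbours, 9 held the shorter core and 2 an X-box. It lay closest to the start site in Drc1, at bases -11 to -6 and 7 to 12, in Ccdc65 at -13 to -8 and in Drc3 at 6 to 11, with another in Drc3 at -24 to -19. Gas8 held another core at bases 41 to 46, outside the stretch shown. Ccdc40 had a promoter in the table with none of the searched motifs, and Tcte1 and Iqcd had no entry. The forkhead motif GTAAACA was in 0 of the 8 and in 3.65% of all promoters. A match describes letters only, and its absence says nothing of what binds there.

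None of the 10 genes passed the size rule, which asks of a gene a ratio of 1.5-fold or more (a log2 size of 0.585), with 1 direction on both arrays. It stands in place of a test because each genotype was 1 pool, so no difference here has a biological replicate check. By this rule 2.35% of all measured genes were lower and 0.0592% higher in the homozygous pool, so a count of 0 of 10 is near that background. Lower genes made up 4.07% of those dimmer than the median and 0.635% of the brighter ones. Of the 10 genes, 7 had log2 ratios (homozygote over heterozygote) below 0 on both arrays, 0 had ratios above 0 on both, and Ccdc40, Gas8 and Tcte1 had opposite signs. Below 0 on both arrays lay 34% of all measured genes, 43% of those dimmer than the median and 25.1% of the brighter ones; above 0 on both lay 25.7% of all. With each array centred on its median in place of loess, 4 of the 10 (Ccdc39, Drc3, Drc7 and Tcte1) and 19.8% of all genes lay below 0 on both. The median of the 10 mean ratios was -0.20, from -0.22 on array 1 and -0.25 on array 2, against -0.02 for all measured genes. In tissue pieces, fewer ciliated cells and less RNA per cell cannot be told apart.

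**Figure D1:**
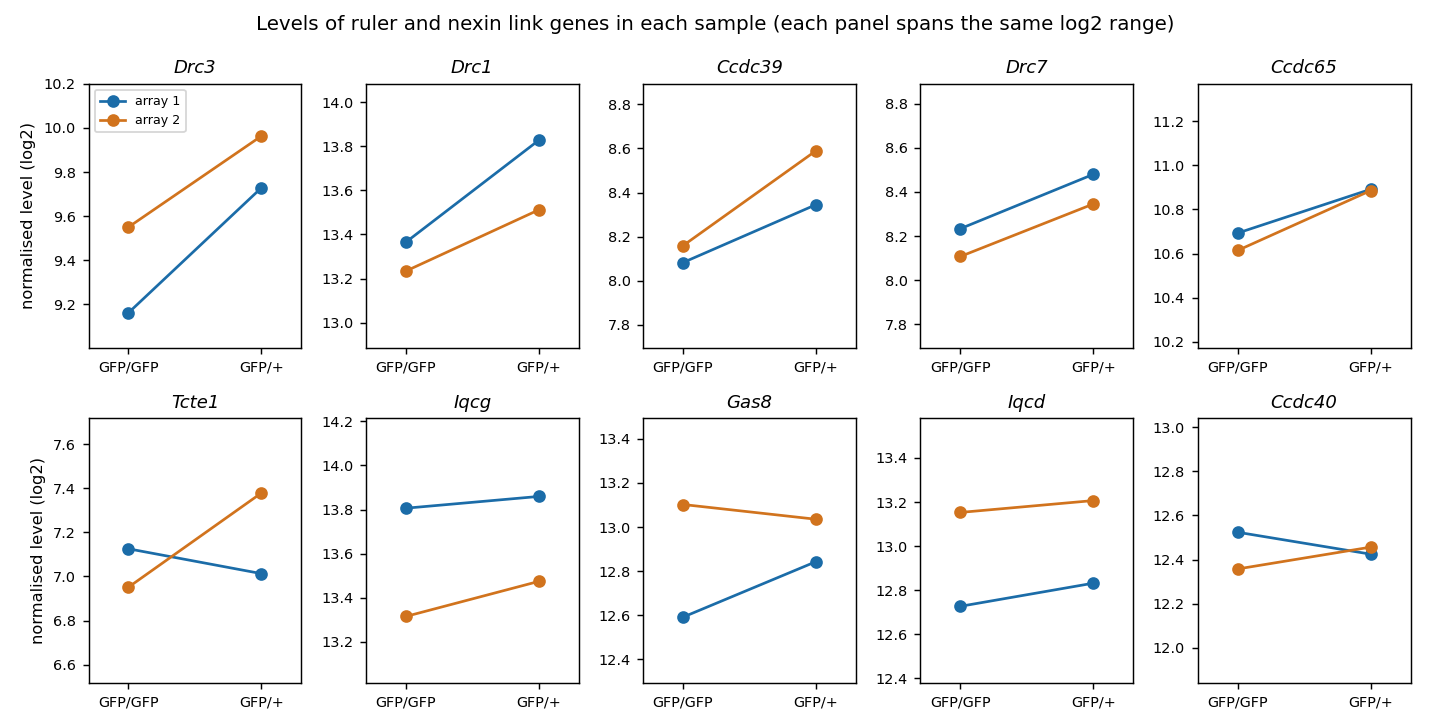
Normalised log2 level of each ruler and nexin link gene (vertical axis, 1 panel per gene, equal span) in the Noto GFP/GFP sample (left) and the Noto GFP/+ sample (right) of each array, joined by a line per array. Both lines go up towards GFP/+ in 7 panels and cross or part in those of Tcte1, Gas8 and Ccdc40.

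Ccdc39 and Ccdc40, whose proteins form the ruler as a pair, did not read alike. Ccdc39 was read by a probe at chr3:34004083-34004142 on the minus strand (all probe positions are those in the files, mouse build mm8). Its normalised log2 level was 8.08 and 8.16 in the homozygous samples, against 8.35 and 8.59 in the heterozygous samples. Both homozygous samples were below both heterozygous ones. The log2 ratio was -0.26 on array 1 and -0.43 on array 2, a mean of -0.35 ± 0.12 (SD over the 2 arrays, here and below, which is technical spread), or 0.786-fold. The spots were dim, at 4.50 to 5.11 times local background in the homozygous and 5.84 to 10.3 times in the heterozygous samples. A second Ccdc39 probe, at chr3:34012046-34012105, was not measured in either genotype.

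Ccdc40, the partner whose loss disturbs left-right placement of organs in mice, was read at chr11:119081066-119081125. It had levels of 12.52 and 12.36 in the homozygous samples and 12.42 and 12.46 in the heterozygous ones. The samples overlapped, and the ratios were 0.10 and -0.10, a mean of 0.00 ± 0.14. Its spots were bright, at 86.8 to 119 times background in the homozygous samples. The ratios of the ruler pair lay 0.36 apart on array 1 and 0.33 on array 2, with Ccdc39 the lower on each, and the dimmer probe was that of Ccdc39. Whether brightness has a part in this gap was not tested.

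Drc1, Ccdc65 (Drc2) and Gas8 (Drc4) encode the coiled-coil proteins that form the base of the link and anchor it to the doublet. Drc1 had levels of 13.36 and 13.23 in the homozygous samples, against 13.83 and 13.51 in the heterozygous samples. The groups did not overlap. The ratios were -0.46 and -0.28, a mean of -0.37 ± 0.13, or 0.774-fold. The probe was bright, at 148 to 221 times background in the homozygous samples and 168 to 322 times in the heterozygous samples, and the file gives no position for it. Among genes brighter than the median, 2.48% had a lower mean ratio than Drc1. With median centring its ratios had opposite signs, 0.12 on array 1 and -0.41 on array 2.

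Ccdc65 was read at chr15:98551144-98551203 and had levels of 10.69 and 10.61 in the homozygous samples and 10.89 and 10.89 in the heterozygous ones. The groups did not overlap, though the gap was small. The ratios were -0.20 and -0.27, a mean of -0.24 ± 0.05. With median centring they were 0.17 and -0.33, again of opposite sign. A second Ccdc65 probe, at chr15:98537120-98537179, was not measured in either genotype.

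Gas8 was read by a probe that spans an intron, at chr8:126419376-126422489, and had levels of 12.59 and 13.10 in the homozygous samples and 12.84 and 13.04 in the heterozygous ones. The 2 arrays differed more than the genotypes did. The ratios were -0.25 and 0.07, a mean of -0.09 ± 0.23. Of the base proteins, Drc1 and Ccdc65 thus had ratios below 0 on both arrays under loess and Gas8 did not.

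The 60-base probes of Drc3 and Gas8 and the second probe of Iqcd are shown because their positions span an intron, so that each matches spliced RNA. Drc3 also had the lowest ratio of the 10 genes, and the second Iqcd probe was not measured. These probes are on the plus strand and were read from the scanner files.
Drc3, chr11:60203505-60205013: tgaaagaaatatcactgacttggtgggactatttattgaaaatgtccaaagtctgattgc
Gas8, chr8:126419376-126422489: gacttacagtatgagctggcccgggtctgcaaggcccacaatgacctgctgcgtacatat
Iqcd, second probe, chr5:120865769-120867262: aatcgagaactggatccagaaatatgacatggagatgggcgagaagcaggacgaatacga

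Drc3 and Tcte1 (Drc5) encode leucine-rich repeat proteins of the part of the link that faces the neighbouring doublet and the dyneins. Drc3 had levels of 9.16 and 9.55 in the homozygous samples, against 9.73 and 9.96 in the heterozygous samples. The groups did not overlap. The ratios were -0.57 and -0.41, a mean of -0.49 ± 0.11, or 0.712-fold, which was the lowest of the 10 genes under all settings that used both arrays. On array 1 it came near the size rule and on array 2 it did not. Of all measured genes 4.89% had a lower mean ratio, and of those dimmer than the median, as Drc3 is, 8.40%.

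Tcte1, known from mice for its role in sperm motility, was read at chr17:45005538-45005597 and was the dimmest of the 10 genes. Its levels were 7.13 and 6.95 in the homozygous samples and 7.01 and 7.38 in the heterozygous ones. The signal was only 2.13 to 2.52 times background in the homozygous samples, with 1 of the 2 well above background, and 2.75 to 3.84 times in the heterozygous ones. The ratios of 0.11 and -0.43 had opposite signs, with a mean of -0.16 ± 0.38.

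Drc7, a linker subunit with a transglutaminase-like domain, was read at chr8:97948251-97948310. Its levels were 8.23 and 8.11 in the homozygous samples, against 8.48 and 8.35 in the heterozygous samples. The groups did not overlap, and the gap was nearly equal on the 2 arrays. The ratios were -0.25 and -0.24, a mean of -0.24 ± 0.01. Drc7 was the only one of the 10 genes with another measured probe, at chr8:97963305-97963364, and there the ratios were -0.23 and 0.13, so the probes differed in sign on array 2. That other probe was the dimmer, at a log2 brightness of 7.22 against 8.28 for the probe used. On array 2 its homozygous sample was not well above background.

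Iqcg (Drc9) and Iqcd (Drc10) carry IQ motifs, the kind of sequence that binds calmodulin, and IQCG is needed for the sperm flagellum in mice. Iqcg was read at chr16:32936399-32936458 and had levels of 13.81 and 13.32 in the homozygous samples and 13.86 and 13.47 in the heterozygous ones. The groups overlapped because the arrays differed more than the genotypes. The ratios were -0.05 and -0.16, a mean of -0.11 ± 0.07. Iqcd, read at chr5:120867664-120867723, had levels of 12.73 and 13.15 in the homozygous samples and 12.83 and 13.21 in the heterozygous ones, which also overlapped. Its ratios were -0.10 and -0.05, a mean of -0.08 ± 0.04. The intron-spanning second Iqcd probe was not measured in either genotype, at a log2 brightness of 6.81 against 12.97 for the probe used. Why these probes differ was not tested. Both genes were among the brighter ones, and with median centring in place of loess both means lay above 0, at 0.13 for Iqcg and 0.12 for Iqcd, where the median of all genes was 0.12.

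In 5 of the 10 genes (Drc3, Drc1, Ccdc39, Drc7 and Ccdc65) both homozygous levels lay under both heterozygous ones, against 16.6% of all measured genes, 23.6% of those dimmer than the median and 9.62% of the brighter ones. In 0 of the 10 both homozygous levels lay over both heterozygous ones, against 10.7% of all measured genes. Of these 5, only Drc1 was brighter than the median, while Iqcg, Gas8, Iqcd and Ccdc40, the other bright ones, had means between -0.11 and 0.00. The levels are those after loess, and the count was not rerun under other scaling. With median centring the ratios of Drc1 and Ccdc65 had opposite signs, and on the other measured Drc7 probe the groups overlapped under loess. The SD over the arrays ran from 0.01 in Drc7 to 0.38 in Tcte1. The mean was at least 2 SD from 0 in 6 genes, but this count was not made for all measured genes. This SD is technical spread, so a small ratio passes where the arrays read nearly alike, as in Iqcd at -0.08 ± 0.04. In Ccdc40, Gas8 and Tcte1 the ratios had opposite signs on the arrays. No dye orientation had a repeat array, and the part of the dye in these differences was not tested.

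**Figure D2:**
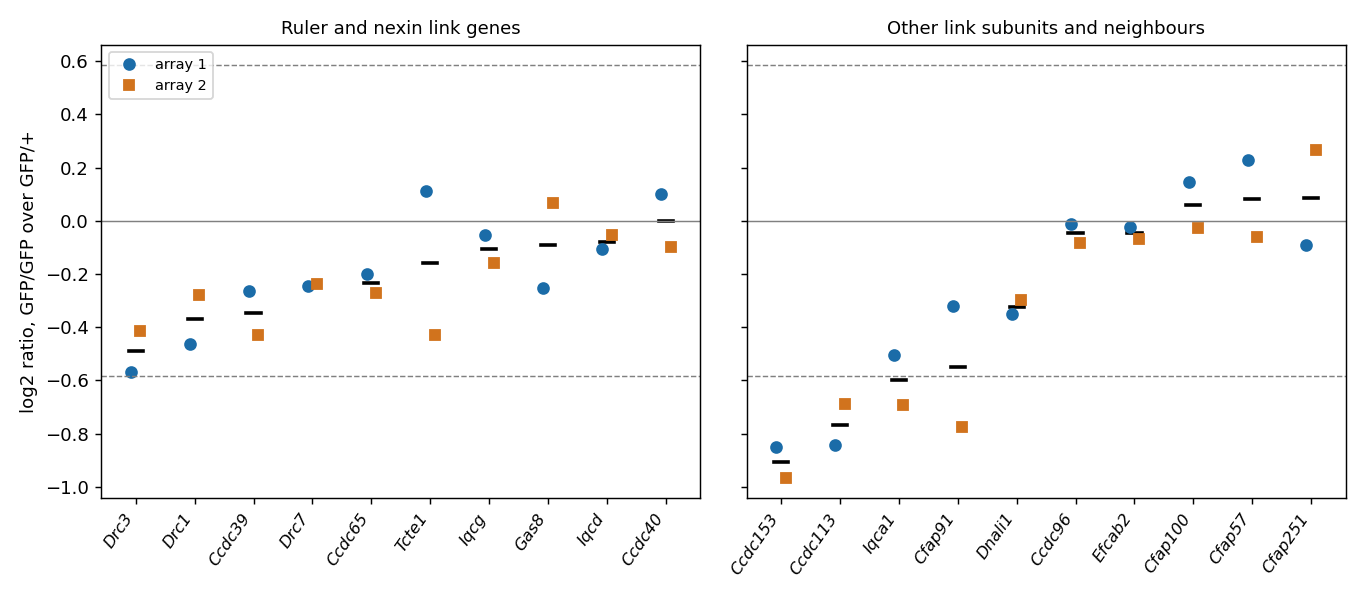
Log2 ratio of Noto GFP/GFP over Noto GFP/+ (vertical axis) on array 1 (circles) and array 2 (squares) with the mean as a bar, for the ruler and nexin link genes (left) and the measured other link subunits and neighbours (right), in order of mean; dashed lines are the 1.5-fold limits. No ruler or link gene passes a limit on both arrays, while Ccdc153 and Ccdc113 do.

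Among other subunits of the link and its neighbours on the doublet, Ccdc153 and Ccdc113 were lower in the homozygous pool. Of 13 such genes, 10 were measured, 2 were lower by the size rule and 0 higher, against 2.35% of all measured genes lower and 4.07% of those dimmer than the median, as 8 of the 10 were; Fbxl13, Cfap61 and Cfap73 were not measured. Their median ratio was -0.19, with 7 below 0 on both arrays, against 43% of the dimmer genes, and 0 above 0 on both. Ccdc153, which encodes the link subunit DRC12, had levels of 7.73 and 7.88 in the homozygous samples, against 8.58 and 8.85 in the heterozygous samples. The groups were clearly apart on both arrays. The ratios were -0.85 and -0.97, a mean of -0.91 ± 0.08, or 0.533-fold, read at chr9:43997773-43997832. The signal was dim, at 3.81 to 4.18 times background in the homozygous and 6.73 to 13.3 times in the heterozygous samples.

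Ccdc113 encodes a coiled-coil protein that sits between the link and the radial spoke next to it. It had levels of 8.81 and 8.88 in the homozygous samples, against 9.66 and 9.57 in the heterozygous samples. The groups did not overlap here either. The ratios were -0.84 and -0.69, a mean of -0.77 ± 0.11, or 0.588-fold, from an intron-spanning probe at chr8:98435175-98440381. Both genes kept the call under all alternative settings, with means from -1.17 to -0.84 for Ccdc153 and from -0.84 to -0.69 for Ccdc113. Ccdc96, whose protein forms a complex with CCDC113, read -0.05 ± 0.05.

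The other measured neighbours missed the rule. Iqca1 (Drc11), an AAA-domain protein of the link, read -0.50 and -0.69, a mean of -0.60 ± 0.13, and was called with the scanner software's own log ratios (-0.71) and with the value table (-0.74). Cfap91, a protein at the base of a radial spoke, read -0.32 and -0.78, a mean of -0.55 ± 0.32, while another measured probe of it read 0.06 ± 0.08. Dnali1, a light intermediate chain of inner dynein arms, read -0.32 ± 0.04. Efcab2 (Drc8), a calcium-binding subunit of the link, read -0.05 ± 0.03 on its brightest probe and 0.11 ± 0.18 on another measured one, so that the mean of its probes lay above 0, at 0.03. Cfap57, Cfap251 and Cfap100 had opposite signs on the arrays, with means from 0.06 to 0.09. The neighbours therefore spanned -0.91 to 0.09, and the ruler and link genes -0.49 to 0.00. The difference between these lists was not tested.

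**Figure D3:**
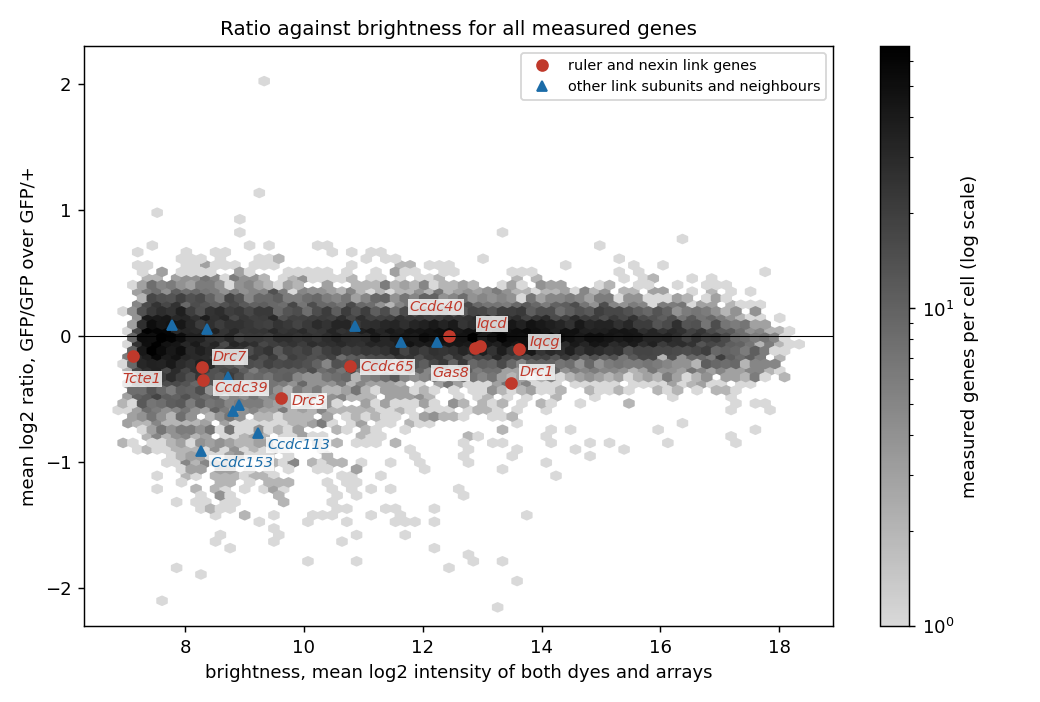
Mean log2 ratio of Noto GFP/GFP over Noto GFP/+ (vertical axis) against brightness, the mean log2 intensity over both dyes and arrays (horizontal axis), for all 18580 measured genes as grey cells (darker for more genes, log scale), with ruler and nexin link genes as circles and other link subunits and neighbours as triangles. Most cells of ratios under -1 lie at the dim end; Drc1, at -0.37, is below most genes of its brightness, and the other bright link genes lie near 0.

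Gene lists of other axonemal parts also had medians below 0. Of 12 measured radial spoke genes, 1 was lower, Dydc2, which encodes a DPY30-domain protein, at -1.20 ± 0.04, and their median was -0.17 ± 0.11 (SD of the medians on each array). Of 10 measured central pair genes 0 were called, with a median of -0.31 ± 0.14. The adenylate kinase gene Ak7 lay farthest from 0 at -0.54 ± 0.28 on its brightest probe. With the mean of the measured probes, Ak7 read -0.26 and the central pair median was -0.20. Of 7 measured axonemal dynein heavy chain genes 0 were called, with a median of -0.27 ± 0.15, and Dnah9, an outer arm motor, lay farthest from 0 at -0.41 ± 0.21. Ratios below 0 on both arrays were found in 8 of 12, 8 of 10 and 5 of 7 of these genes, and ratios above 0 on both in 1 of each list (Cyb5d1 with a mean of 0.21, Spag16 with 0.08 and Dnah8 with 0.32). Most of them were dimmer than the median, so the 43% of dim genes below 0 on both is the closer background. For the called counts, the size rule found 4.07% of dim genes and 2.35% of all measured genes lower. Whether the ruler and link genes differ from these lists was not tested.

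Among the regulators, Foxj1 had levels of 13.30 and 13.45 in the homozygous samples, against 13.89 and 13.91 in the heterozygous samples. The groups did not overlap. The ratios were -0.59 and -0.46, a mean of -0.52 ± 0.09, which passed the limit on array 1 and missed it on array 2. Centring on the median gave -0.0012 on array 1 and -0.62 on array 2, a mean of -0.31. Under that scaling the median of all genes was 0.39 on array 1 and -0.16 on array 2. Rfx2 and Rfx3, the RFX factors known for ciliary genes, read 0.10 ± 0.07 and 0.02 ± 0.01, and other Rfx3 probes 0.25 and 0.06. Drc7, the gene with the full X-box, read -0.24, and the 6 genes with the shorter core ran from -0.49 in Drc3 to -0.09 in Gas8. Ccdc40, with a promoter but none of the motifs, read 0.00, and Tcte1 and Iqcd had no promoter to search. The shorter core was chosen on these promoters, and a link between motif and ratio was not tested.

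Markers of the tissue were checked as lists. Of 27595 genes with a probe 18580 were measured, so being measured does not identify the tissue. All 9 node and organiser markers (T, Foxa2, Shh, Chrd, Nog, Gsc, Foxj1, Nodal and Dand5) were measured. Their median ratio was -0.09, 0 were called, and their summed log2 level was 16.94 and 17.01 in the homozygous samples, against 16.98 and 16.84 in the heterozygous samples, which overlapped. That sum is mostly T and Foxa2, and single markers went both ways. Ratios below 0 on both arrays were read for Gsc (-0.66), Foxj1 (-0.52), Shh (-0.44), Nog (-0.40) and Dand5 (-0.09), and above 0 on both for T (0.33) and Chrd (0.08). Over all measured genes, 34% lay below 0 on both arrays and 25.7% above 0 on both. Blood markers were all measured (7 of 7), with a median of -0.44 and 3 lower, the adult globin genes Hba-a1, Hba-a2 and Hbb-bt. By the size rule 2.35% of all measured genes were lower, and 4.07% of those dimmer than the median. Their summed log2 level was 12.98 and 12.63 in the homozygous samples, against 14.03 and 13.60 in the heterozygous samples, without overlap, and those 3 genes carry most of it. The embryonic globins Hbb-y (-0.44) and Hbb-bh1 (-0.20) lay below 0 on both arrays, while the erythroid factor Gata1 lay above 0 on both, at a mean of 0.21, and Klf1, at -0.07, had opposite signs. Visceral endoderm markers (6 of 6 measured, 0 called) had a median of 0.14 and summed levels of 16.81 and 16.71 in the homozygous samples, against 16.66 and 16.61 in the heterozygous samples, without overlap. Of these markers 4 lay above 0 on both arrays and 0 below 0 on both, where 25.7% of all measured genes lay above 0 on both. Trophoblast and decidua markers (4 of 5 measured) had a median of 0.30, with Prl8a2, a decidual prolactin-family hormone, the 1 called. It was higher, as were 0.0592% of all measured genes by that rule. Their summed levels were 12.02 and 11.40 in the homozygous samples, against 11.54 and 11.05 in the heterozygous samples. The groups overlapped, but the homozygous sample was the higher on each array. Of the 4 genes, 3 lay above 0 on both arrays and 1 below 0 on both. The part of blood or other tissue in the ratios of the ruler and link genes was not tested.

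**Figure D4:**
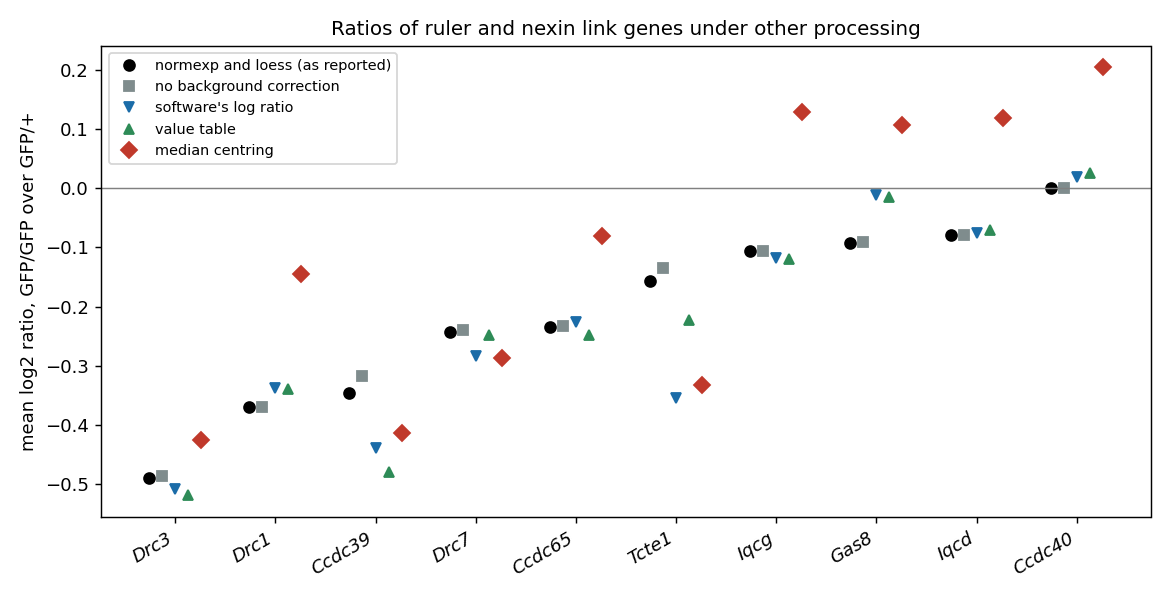
Mean log2 ratio of Noto GFP/GFP over Noto GFP/+ (vertical axis) of each ruler and nexin link gene under the reported processing and 4 others. Drc3 stays lowest under each, while Drc1, Ccdc65, Iqcg, Gas8, Iqcd and Ccdc40 lie higher under median centring, which puts the last 4 between 0.11 and 0.20.

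The scaling of the arrays moved the means of all 5 bright genes upward, and those of Ccdc39, Drc7 and Tcte1 downward. Median centring moved the median of all genes to 0.39 on array 1 and -0.16 on array 2, 0.12 on average. Relative to that shift the median of the 10 genes, -0.11, was still below the median of all genes. Drc3 read -0.43 and Ccdc39 -0.41 under this scaling, against 0.20 for Ccdc40 and 0.11 for Gas8. Across genes, which are not independent replicates, Pearson's r between the array 1 and array 2 ratios was 0.501 under loess, -0.052 under median centring and 0.131 among genes brighter than the median under loess.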

How the data were processed

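Per the file headers, the authors read each 2-colour array with Agilent Feature Extraction 9.5.3.1, which wrote foreground and background intensity per spot, flags and, as log10, the ratio of Cy5 to Cy3. The authors' deposited value table holds 1 intensity column per sample; its method is not stated in the sources used here. Both samples of an array had identical scanner files, so each array was read once. Each array had 43379 gene spots, 0 of them saturated. In the homozygous samples 81.46% (array 1) and 63.96% (array 2) were well above background, and in the heterozygous samples 77.68% and 68.08%. Precision is limited by the number of arrays.

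From mean foreground and median background, limma 3.58.1 (R 4.3.3) applied normexp (offset 50) and loess within each array, with controls at weight 0 and outlier spots (179 and 165) dropped. The sign of array 2 was turned, and both ratios read homozygote over heterozygote. Levels came from loess and Aquantile. A gene took its brightest measured probe. Names were updated through a RefSeq table (GRCm38.p6, which also gave the promoters): 33115 probes matched, and 8059 kept the file's name. Python 3.11.15 with pandas 2.3.3 and matplotlib 3.10.9 made summaries and plots. The ratio step was tested on simulated data.

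With 1 RNA pool per genotype there is no test and no p-value. The rule named every gene of the set with its probes; called neighbours, or else the 3 farthest from 0; called spoke, central pair and dynein genes, or else the 1 farthest from 0; and Foxj1, Rfx2 and Rfx3. Other neighbours and markers were named after their values were seen. The genes and lists were chosen with earlier results of these data known. Alternatives tried were background correction, scaling, the software's log ratio, the value table, the probe rule, the filter and single arrays.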

Additional observations from a re-analysis of the deposited data

How the results depend on the processing

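Ccdc153, Ccdc113 and Dydc2 kept their sign under every setting run; the called marker genes were not rerun. Limits are the single pool of each genotype, arrays that repeat it only technically, and dim probes in 5 of the 10 ruler and link genes. No paired analysis was possible because nothing here was tested; the replicate numbers name the 2 arrays, and each ratio already sets both genotypes side by side on an array. The count of called ruler and link genes was 0 of 10 with both arrays and on each array alone. Of their single values, 9 moved past the SD between arrays and 60 did not. Many of the 60 could not move, since the filter settings, and the probe rule for genes with 1 measured probe, returned the same value. Median centring moved Ccdc40, Drc1, Ccdc65, Drc7, Iqcg and Iqcd. The cause was not tested unless stated. With median centring the mean of the 10 ratios was -0.11 (-0.21 under loess), their median -0.11, the count below 0 on both arrays 4, and the central pair median -0.13. The median of the 10 was -0.25 with the software's log ratio, -0.23 with the value table, -0.15 with the mean of measured probes, -0.24 with genes well above background in both genotypes (which leaves out Tcte1), and -0.25 to -0.22 on single arrays. The neighbour median was -0.17 without background correction, -0.20 with the value table, -0.14 with the mean of probes and -0.046 with no filter on dim probes, which adds unmeasured genes; on array 1 alone it was -0.20 and on array 2 alone -0.19. Without that filter the central pair median was -0.15 and the dynein heavy chain median -0.10. On array 1 alone these were -0.16 and -0.092, and on array 2 alone -0.36 and -0.30. The radial spoke median was -0.23 on array 1 alone and -0.077 on array 2 alone. Genes called among all numbered 814 with the software's log ratio (713 lower, 101 higher), 746 with the value table (95 higher) and 768 to 1058 on single arrays, which ask for 1 array only (644 to 945 lower, 113 to 124 higher).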
